A study of Mus musculus with 8 samples.

Results

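The ADAM and ADAMTS metalloproteases of the testis were taken as all array probe sets annotated to exactly 1 symbol that is Adam plus a number, with an optional letter, or Adamts plus a number. The brightest probe set, by its mean over the 8 arrays, stood for each gene. This gave 52 genes, carried by 76 probe sets, of the 19938 genes named on the array. By where each gene is known to be made, 21 were germ-cell ADAMs, 1 was the epididymal Adam7, 12 were somatic ADAMs and 18 were ADAMTS genes, the last 2 classes together 30 genes. Adam36, Adam37, Adam38 and Adamts2 belong to these classes and were not analysed here, since no probe set carried 1 of these symbols alone. RNA came from whole testes of 5 Ing2-/- mice and 3 Ing2+/+ littermates, all 2 to 3 months old, with 1 array per mouse and none pooled. Ing2 encodes a reader of methylated histone H3 that belongs to a histone deacetylase complex, and Ing2-/- mice lack its exon 2 in all tissues. The deletion was made with Cre from the EIIa promoter, which acts in the early embryo, in a line that began with embryonic stem cells of a strain other than C57BL/6J. Carriers were bred with C57BL/6J mice, and those without the Cre transgene were intercrossed to give the knockout mice. Each comparison asked which of these proteases differ between testes without and with Ing2.

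ADAMs are membrane proteins with a metalloprotease and a disintegrin domain, and ADAMTS proteins are their secreted relatives with thrombospondin repeats. The somatic ADAMs with an intact active site cut the ectodomains off cytokines, growth factors and Notch receptors, and the ADAMTS enzymes cut proteoglycans, procollagens and von Willebrand factor in the matrix and the blood. Rodents carry in addition a large group of ADAMs made in spermatocytes and spermatids, many of them without a working active site. Some of their proteins reach the sperm surface and act in sperm migration and in binding to the egg.

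Where a start site was found, the classes differed in the sequence before it. RefSeq start sites of GRCm38.p6 were matched by symbol to 27 of the 52 genes, among them 6 of the 9 that passed the test described below, and the 250 bases before each were read. The 11 windows of germ-cell ADAMs held a median of 38.0% G and C (33.2 to 50.0%) and a median of 1 CpG (0 to 4). They cover 11 of the 21 genes of that class, some of them close copies. No window was found for Adam2, Adam3, Adam4, Adam5, Adam18, Adam24, Adam26a, Adam30, Adam32 and Adam39. The 9 windows of 7 somatic ADAMs held 62.0% (50.0 to 74.0%) and 17 CpG (4 to 29), and the 9 ADAMTS windows 65.6% (54.0 to 78.0%) and 15 CpG (1 to 35), where all 32851 windows of the table had medians of 52.4% and 6. A window for a germ-cell ADAM that fell (Adam21), a second one (Adam34), a sheddase (Adam10) and an ADAMTS gene that fell (Adamts17) are printed 5′ to 3′ with CpG in capitals, to show that contrast: Adam21 and Adam34 have no capital at all. Adam21 and Adam34, with 0 CpG, and Adam10, with 29, are the extremes of their classes. Other windows lay at or near the germ-cell range, with 4 to 7 CpG for Adam19, 6 for Adam8, 6 for Adamts12 and 1 for Adamts13.
Adam21 (chr12:81568475-81568724, minus strand): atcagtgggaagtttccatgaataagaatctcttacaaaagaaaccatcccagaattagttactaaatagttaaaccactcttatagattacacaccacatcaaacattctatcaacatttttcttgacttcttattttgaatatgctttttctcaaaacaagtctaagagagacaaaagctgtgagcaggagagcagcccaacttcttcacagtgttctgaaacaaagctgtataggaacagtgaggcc
Adam34 (chr8:43665561-43665810, minus strand): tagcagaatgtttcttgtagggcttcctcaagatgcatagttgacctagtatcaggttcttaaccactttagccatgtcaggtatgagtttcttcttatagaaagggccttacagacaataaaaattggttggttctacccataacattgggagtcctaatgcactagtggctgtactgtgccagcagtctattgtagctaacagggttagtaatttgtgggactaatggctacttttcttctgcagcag
Adam10 (chr9:70678732-70678981, plus strand): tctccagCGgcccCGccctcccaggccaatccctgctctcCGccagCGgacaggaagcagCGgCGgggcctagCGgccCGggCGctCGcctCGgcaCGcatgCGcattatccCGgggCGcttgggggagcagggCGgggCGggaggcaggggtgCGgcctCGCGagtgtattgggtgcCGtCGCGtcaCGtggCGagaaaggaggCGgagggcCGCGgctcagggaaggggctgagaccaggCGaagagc
Adamts17 (chr7:66839485-66839734, plus strand): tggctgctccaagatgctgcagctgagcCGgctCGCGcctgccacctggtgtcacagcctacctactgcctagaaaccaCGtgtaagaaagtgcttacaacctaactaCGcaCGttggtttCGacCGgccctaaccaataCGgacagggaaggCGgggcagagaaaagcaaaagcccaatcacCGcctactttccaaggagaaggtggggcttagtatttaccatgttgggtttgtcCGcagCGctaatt

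The cAMP response element TGACGTCA, bound by regulators of spermatid genes, was searched on both strands and was in 0 of these member windows and in 1.55% of all windows. Its core TGACG, which lies within it, was in 0 of 11 germ-cell windows, 1 of 9 somatic ADAM windows, 4 of 9 ADAMTS windows and 17.8% of all windows. The TATA box letters TATAAA were in 3 of 11, 0 of 9, 1 of 9 and 12.4%. The 3 germ-cell matches lay 219 (Adam29), 104 (Adam6a) and 205 (Adam6b) bases before the start, the last 2 on the opposite strand. Adam6a and Adam6b hold theirs in a stretch that both windows share. The ADAMTS match, of Adamts1, lay 32 bases before the start on the same strand. Adam20 and Adam25, neighbours on chromosome 8, have almost the same window, 93.7% identical over 254 aligned positions. They are printed with the bases that differ, or have no partner in the other window, in capitals, since Adam20 passed the test between the genotypes and Adam25 did not, a contrast that was itself not tested.
Adam20 (chr8:40793023-40793272, plus strand): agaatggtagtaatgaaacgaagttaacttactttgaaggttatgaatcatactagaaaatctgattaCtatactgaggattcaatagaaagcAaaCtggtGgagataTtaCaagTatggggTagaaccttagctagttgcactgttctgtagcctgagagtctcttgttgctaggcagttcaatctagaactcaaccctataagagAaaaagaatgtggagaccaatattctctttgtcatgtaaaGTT
Adam25 (chr8:40751958-40752207, plus strand): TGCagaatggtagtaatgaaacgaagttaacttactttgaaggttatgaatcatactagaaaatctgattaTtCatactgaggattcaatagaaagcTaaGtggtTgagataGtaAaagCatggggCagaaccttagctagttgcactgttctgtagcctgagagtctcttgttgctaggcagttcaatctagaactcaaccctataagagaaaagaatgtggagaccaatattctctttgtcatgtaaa
Of 254 positions, 238 were identical, 8 held different bases and 8 had a base in 1 window alone.

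Levels are deposited log2 values, and a value of 1 gene's probe set cannot be set against another's as an amount. The labels held for Ing2 itself, whose level was 5.06, 5.64, 5.21, 5.29 and 5.25 in the Ing2-/- testes, against 7.43, 7.60 and 7.34 in the Ing2+/+ testes. The groups did not overlap, and Ing2 fell by 2.16 (SE 0.13, adjusted p = 3.95e-04 from limma, and p = 0.0179 in the exact two-sided permutation test, the smallest that 56 splits of 8 arrays allow). Array medians were 6.46 to 6.53 in Ing2-/- and 6.41 to 6.45 in Ing2+/+ testes. Ing2-/- replicate 3 stood apart, with a mean r of 0.983 to its own group across probe sets, which are not independent, against 0.990 to 0.992 for the other Ing2-/- arrays and 0.995 for each Ing2+/+ array. The 12 Sertoli cell markers had scores, the mean log2 level over a list minus that of the Ing2+/+ arrays, of 0.32 to 1.06 in Ing2-/- testes and -0.013 to 0.011 in Ing2+/+ testes. The whole testis is a mixture, so fewer cells of a type and less RNA per cell cannot be told apart in any result below. Testis tissue showed its protamine: Prm1 had 11.47, 11.45, 11.06, 11.22 and 11.12 in the Ing2-/- testes, against 11.35, 11.49 and 11.56 in the Ing2+/+ testes. Of 6 epididymal markers measured, 4 lay in all 8 testes below the median of the probe sets that name no gene, and their list scored -0.10 to -0.02 in Ing2-/- and -0.03 to 0.04 in Ing2+/+ testes.

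All 21 germ-cell ADAMs had a mean below that of Ing2+/+ testes, and 6 of them fell in the test (limma, with p-values adjusted by Benjamini-Hochberg across the 35557 probe sets and a threshold of 0.05), whereas over all genes 3.01% were called lower and 45.7% had a mean below Ing2+/+. In 19 of 21 every Ing2-/- array lay below every Ing2+/+ array, against 14.9% of all genes. The exceptions were Adam5 and Adam25, which overlapped. The median log2 fold change of the 21 was -0.65 (-1.17 to -0.17), beside 0.02 over all genes, and 17 had an unadjusted p under 0.05, all of them lower, where 13.5% of all genes were. At an unadjusted p under 0.001, the threshold of the study's methods, 3 of 21 were lower and 0 higher, beside 1.87% and 0.883% of all genes. The count of 6 depended on single arrays: it was 0 when any 1 of the 3 Ing2+/+ arrays or Ing2-/- replicate 5 was left out, and leaving out Ing2-/- replicate 1, 2, 3 or 4 gave 4, 3, 14 and 8. Those last 4 fits called 1.71%, 1.74%, 7.76% and 3.29% of all genes lower, and the 4 fits with a count of 0 called 0.181% to 0.868%.

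**Figure D1:**
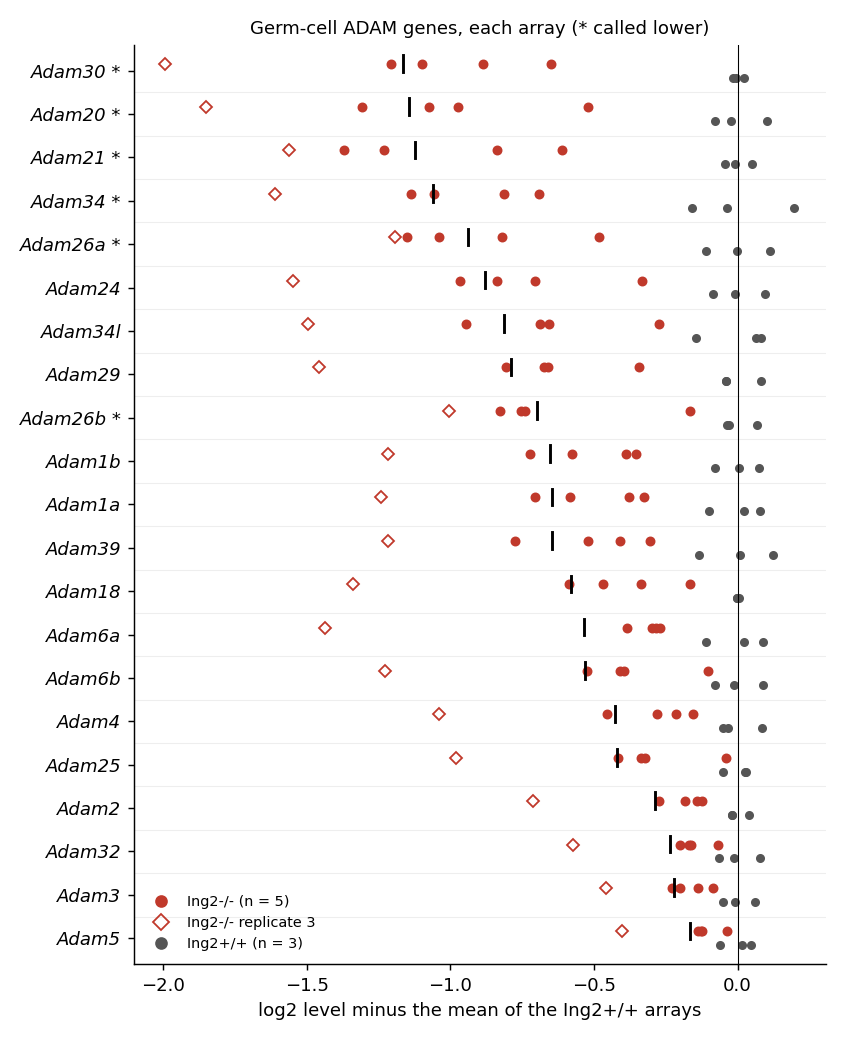
Log2 level of each germ-cell ADAM per array after subtracting the Ing2+/+ mean (x axis), with genes ordered by their log2 fold change down the y axis, Ing2-/- arrays as red symbols above Ing2+/+ arrays as grey dots, and a black bar at the Ing2-/- mean. In 19 of 21 genes no red symbol reaches the grey dots, and the open diamond of Ing2-/- replicate 3 is the lowest in all 21.

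The fertilin group comprises the proteins with the best known part in mouse sperm. Adam1b and Adam2 pair as fertilin on the sperm surface, and Adam1a pairs with Adam2 inside the spermatogenic cell, where this pair is needed for Adam3 to reach the sperm. Sperm need Adam3 to pass from the uterus into the oviduct. Adam1a had 10.26, 10.06, 9.40, 10.32 and 9.94 in the Ing2-/- testes, against 10.54, 10.67 and 10.72 in the Ing2+/+ testes. Adam1b had 9.86, 9.64, 9.00, 9.83 and 9.49 in the Ing2-/- testes, against 10.22, 10.14 and 10.29 in the Ing2+/+ testes. Both genes, neighbours on chromosome 5, were lower in 5 of 5 Ing2-/- testes than in any Ing2+/+ testis, with log2 fold changes of -0.65 (SE 0.19, adjusted p = 0.0777) and -0.65 (SE 0.18, adjusted p = 0.0708) from limma that missed the threshold. Adam2 had 10.69, 10.64, 10.11, 10.68 and 10.54 in the Ing2-/- testes, against 10.80, 10.80 and 10.86 in the Ing2+/+ testes, and again the groups did not overlap, with Ing2-/- replicate 3 well below the rest (log2 fold change -0.29, SE 0.13, adjusted p = 0.193 from limma). Adam3 had 11.96, 11.89, 11.63, 12.01 and 11.87 in the Ing2-/- testes, against 12.15, 12.05 and 12.09 in the Ing2+/+ testes. Its difference was small next to that of Adam1b, and the lowest Ing2+/+ testis lay just above the highest Ing2-/- testis (log2 fold change -0.22, SE 0.09, adjusted p = 0.153 from limma).

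The 6 germ-cell ADAMs that fell belong to the group first found as testis-specific metalloproteases, in part named testases in rodents. Adam30, predicted to be an active metalloprotease, had 8.91, 8.36, 7.57, 8.46 and 8.68 in the Ing2-/- testes, against 9.58, 9.56 and 9.55 in the Ing2+/+ testes. The Ing2+/+ values lay close together while the Ing2-/- values spread widely, all below them, and Adam30 fell by 1.17 (SE 0.26, adjusted p = 0.0419 from limma), 2.24-fold lower on a linear scale. Adam20, expressed in spermatogenic cells, had 7.89, 7.56, 7.01, 8.34 and 7.79 in the Ing2-/- testes, against 8.97, 8.84 and 8.79 in the Ing2+/+ testes. The groups did not overlap, with Ing2-/- replicate 4 nearest to Ing2+/+ and replicate 3 farthest, and Adam20 fell by 1.15 (SE 0.25, adjusted p = 0.0406 from limma), 2.21-fold lower. Adam21, found in spermatogenic cells and on sperm, had 7.52, 6.98, 6.80, 7.74 and 7.13 in the Ing2-/- testes, against 8.41, 8.35 and 8.31 in the Ing2+/+ testes. Here Ing2-/- replicates 2 and 5 lay not far above replicate 3, all below Ing2+/+, and Adam21 fell by 1.12 (SE 0.20, adjusted p = 0.0239 from limma), 2.18-fold lower.

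Adam34, also known as testase 4, had 6.66, 6.34, 5.87, 6.78 and 6.42 in the Ing2-/- testes, against 7.44, 7.32 and 7.67 in the Ing2+/+ testes. All 5 Ing2-/- testes lay below the 3 Ing2+/+ testes, and Adam34 fell by 1.06 (SE 0.19, adjusted p = 0.0251 from limma). Its neighbour Adam26a, testase 3, had 4.67, 4.34, 4.30, 5.01 and 4.45 in the Ing2-/- testes, against 5.49, 5.60 and 5.38 in the Ing2+/+ testes. The groups did not overlap and Adam26a fell by 0.94 (SE 0.16, adjusted p = 0.0209 from limma), but all 5 Ing2-/- values and 2 of 3 Ing2+/+ values lay below the median of the unnamed probe sets of their array, so neither level is shown to be above background. Adam26b, the paralog next to it, had 7.49, 7.40, 7.22, 8.06 and 7.48 in the Ing2-/- testes, against 8.19, 8.30 and 8.20 in the Ing2+/+ testes. Ing2-/- replicate 4 came closest to the lowest Ing2+/+ testis and the other 4 lay lower, and Adam26b fell by 0.70 (SE 0.16, adjusted p = 0.0487 from limma). All 6 lost the call when any 1 of the Ing2+/+ arrays or Ing2-/- replicate 5 was left out, and the largest adjusted p over left-out arrays was between 0.103 for Adam26a and 0.171 for Adam26b. The fall of the fitted value was steadier than the call, between -1.30 and -0.96 for Adam30 and between -1.15 and -0.93 for Adam34 with any array left out.

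**Figure D2:**
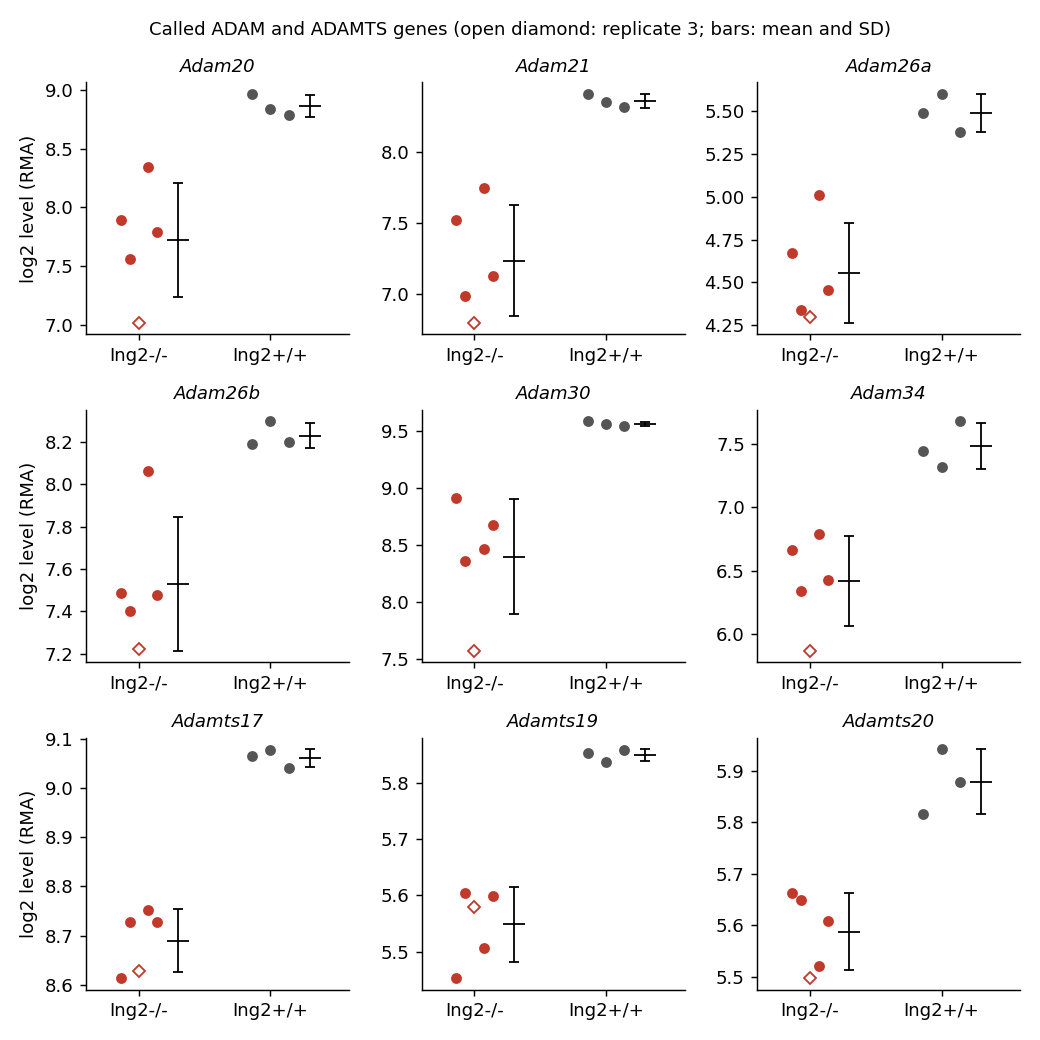
Log2 level of the 9 ADAM and ADAMTS genes called lower (y axes, which do not start at 0), with 1 point per array for Ing2-/- (red, left) and Ing2+/+ (grey, right) and black bars for mean and SD. In all 9 panels the 5 Ing2-/- points lie below the 3 Ing2+/+ points, and in the bottom row, of Adamts17, Adamts19 and Adamts20, Ing2-/- replicate 3 (open diamond) is no longer the clear lowest.

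The other 11 germ-cell ADAMs were not called. Adam24 (testase 1, -0.88), Adam34l (-0.81), Adam29 (-0.79), Adam39 (-0.65), Adam18 (-0.58), Adam6a (-0.54), Adam6b (-0.53), Adam4 (-0.43), Adam25 (testase 2, -0.42), Adam32 (-0.23) and Adam5 (-0.17) are given by their log2 fold changes. From limma, Adam24 had the lowest adjusted p of the 11, 0.0591, and Adam5 the highest, 0.253. Several of these genes are close copies (Adam6a and Adam6b, Adam20 and Adam25, Adam26a, Adam26b, Adam34 and Adam34l), and how far their probe sets share probes was not examined, so single copies are uncertain.

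The germ-cell ADAMs moved with the levels of germ-cell markers. Their mean score was -0.48, -0.67, -1.22, -0.32 and -0.64 in the 5 Ing2-/- testes, against 0.04, -0.03 and -0.01 in the 3 Ing2+/+ testes. The 12 round spermatid markers scored -0.23, -0.28, -0.86, -0.15 and -0.33 in Ing2-/- testes, against -0.03 to 0.04 in Ing2+/+ testes. All 12 of these markers had means below Ing2+/+ (median -0.32), beside 45.7% of all genes. Of these markers 8 were without overlap and 1 was called by limma, beside 14.9% and 3.01% of all genes. By the random variance model of the study's methods 0 of the 12 were called. The 12 elongating spermatid markers scored -0.52 to -0.08 in Ing2-/- and -0.03 to 0.03 in Ing2+/+ testes, and the 10 pachytene spermatocyte markers -0.59 to -0.13 and -0.03 to 0.03, with all members of both lists below Ing2+/+. In 5 of 5 Ing2-/- testes the germ-cell ADAM score was lower than the round spermatid score, by 0.17 to 0.39, while in Ing2+/+ testes the difference of the 2 scores lay between -0.05 and 0.07. It was also lower than the elongating spermatid score in 5 of 5, by 0.18 to 0.70, and than the pachytene score in 5 of 5, by 0.19 to 0.63. The lists were not matched for the brightness of their probe sets. The 4 germ-cell ADAMs with Ing2+/+ means of 10.82 to 12.19 had a median log2 fold change of -0.23. The other 17, at 5.49 to 10.64, had a median of -0.70, and the elongating spermatid markers one of -0.21. The part of brightness in these gaps was not tested. The Sertoli score minus the mean of the 2 spermatid scores was 0.46 to 1.75 in Ing2-/- and -0.02 to 0.02 in Ing2+/+ testes. With it as a covariate 0 germ-cell ADAMs were called, in a fit that called 0.206% of all genes lower and 0.12% higher. The median log2 fold change of the germ-cell ADAMs was then -0.14, with 13 of 21 below 0. The covariate separates the genotypes by itself, so the genotype and the cell mix cannot be told apart with it.

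**Figure D3:**
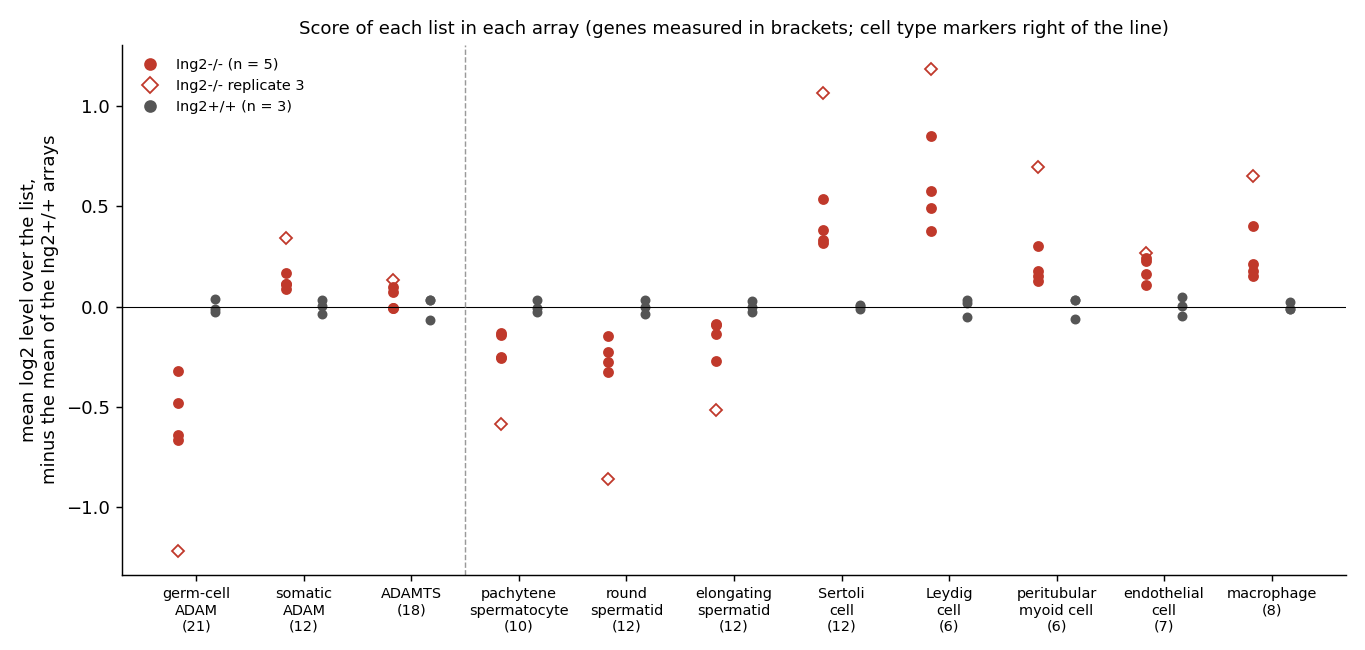
Score of each list in each array (y axis, mean log2 level over the list minus that of the Ing2+/+ arrays), for the 3 protease classes left of the dashed line and for cell type markers right of it, with Ing2-/- arrays in red to the left of Ing2+/+ arrays in grey. The germ-cell ADAM scores of -1.22 to -0.32 in Ing2-/- testes lie, array by array, lower than the spermatid and spermatocyte marker scores, and replicate 3 (open diamond) is the extreme array of nearly all lists. The lists were not matched for the brightness of their probe sets.

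By position, 13 of the 21 germ-cell ADAMs lie on chromosome 8, which also holds Ing2. Those 13 had a median log2 fold change of -0.70 with 4 called lower, and the 8 on other chromosomes had a median of -0.59 with 2 called lower (Adam21 and Adam30). On chromosome 8, Adam29, the nearest to Ing2 at 27 protein-coding genes and across it from the other 12, was not called (log2 fold change -0.79, SE 0.21, adjusted p = 0.0637 from limma). The row of Adam26b, Adam26a, Adam34l and Adam34, 28 to 31 protein-coding genes from Ing2, had 3 of 4 called and log2 fold changes of -1.06 to -0.70. The row of Adam24, Adam25, Adam20 and Adam39, 42 to 45 genes away, had 1 of 4 called and -1.15 to -0.42. The row of Adam18, Adam3, Adam5 and Adam32, 123 to 126 genes away, had 0 of 4 called by limma, with 2 of 4 at an unadjusted p under 0.05 and 0 by the random variance model of the methods, and -0.58 to -0.17. Adam9, a somatic ADAM beside that last row, had a log2 fold change of 0.56. The deleted allele came from stem cells of another strain than the C57BL/6J mice it was bred to, so for genes linked to Ing2 the deletion and alleles of that strain cannot be told apart. By gene length in GRCm38.p6, the 14 germ-cell ADAMs that span 2.27 to 15.3 kb had a median of -0.68 and held all 6 that fell, and the 7 that span 36.1 to 113 kb had a median of -0.29. Adam2, Adam3, Adam5 and Adam32, all among the longer genes, had Ing2+/+ means of 10.82 to 12.19 and a median log2 fold change of -0.23. The other 17 had Ing2+/+ means of 5.49 to 10.64 and a median of -0.70, so length and the brightness of the probe set run together here. These divisions were made after the values were seen and were not tested.

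**Figure D4:**
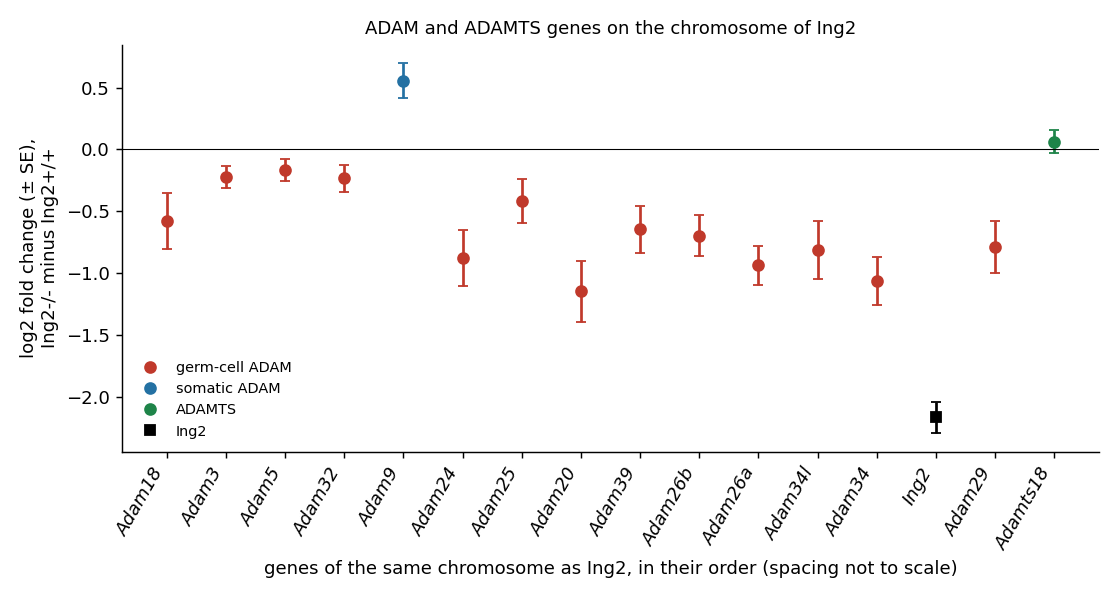
Log2 fold change (y axis, Ing2-/- minus Ing2+/+, bars are SE) of Ing2 and of the ADAM and ADAMTS genes on its chromosome, in gene order along the x axis without a distance scale. The 13 germ-cell ADAMs (red) lie between -1.15 and -0.17, Adam9 (blue) at 0.56, Adamts18 (green) at 0.06 and Ing2 (black square) at -2.16.

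Of the 12 somatic ADAMs 0 were called by limma in either direction, beside 4.98% of all genes, and 0 by the random variance model. At an unadjusted p under 0.05, 4 were higher and 2 lower, beside 16.5% and 13.5% of all genes. The median log2 fold change was 0.06 (-0.53 to 0.89), 9 of 12 were above 0, and in 4 the Ing2-/- arrays all lay above the Ing2+/+ arrays and in 2 all below, beside 16.7% and 14.9% of all genes. Adam10, the sheddase of Notch receptors and of the amyloid precursor protein, had 8.81, 8.68, 9.66, 8.73 and 9.01 in the Ing2-/- testes, against 8.30, 8.19 and 8.22 in the Ing2+/+ testes. All 5 Ing2-/- testes lay above Ing2+/+, replicate 3 by far the most (log2 fold change 0.74, SE 0.21, adjusted p = 0.0694 from limma). Adam9, a widely made sheddase, had 8.73, 8.68, 9.32, 8.70 and 8.85 in the Ing2-/- testes, against 8.32, 8.28 and 8.30 in the Ing2+/+ testes. Its groups did not overlap either, again with replicate 3 the highest (log2 fold change 0.56, SE 0.14, adjusted p = 0.0565 from limma). Adam17, the TNF-converting enzyme, had 8.61, 8.41, 8.78, 8.56 and 8.56 in the Ing2-/- testes, against 8.32, 8.22 and 8.31 in the Ing2+/+ testes. Its groups were separate but close (log2 fold change 0.30, SE 0.085, adjusted p = 0.0710 from limma).

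Adam11, Adam22 and Adam23 are related ADAMs without a working active site, known from the nervous system, where Adam22 and Adam23 are receptors of LGI proteins. The members of this trio lay on opposite sides of Ing2+/+. Adam11 had 6.95, 6.95, 6.61, 6.92 and 6.87 in the Ing2-/- testes, against 7.19, 7.28 and 7.17 in the Ing2+/+ testes (log2 fold change -0.35, SE 0.09, adjusted p = 0.0585 from limma). Adam22 had 5.81, 5.78, 5.21, 5.74 and 5.63 in the Ing2-/- testes, against 6.33, 6.01 and 6.13 in the Ing2+/+ testes (log2 fold change -0.53, SE 0.14, adjusted p = 0.0667 from limma). Both were lower in all 5 Ing2-/- testes, with replicate 3 the lowest. Adam23, named after its values were seen, had 7.00, 6.97, 8.29, 7.03 and 7.51 in the Ing2-/- testes, against 6.47, 6.53 and 6.40 in the Ing2+/+ testes, with all 5 Ing2-/- testes higher and replicate 3 well above the others (log2 fold change 0.89, SE 0.28, adjusted p = 0.0921 from limma). Without Ing2-/- replicate 3, 6 of these 12 passed the test, Adam9, Adam10, Adam17 and Adam23 higher and Adam11 and Adam22 lower, in a fit that called 8.72% of all genes higher and 7.76% lower. The 6 others, Adam8, Adam12, Adam15, Adam19, Adam28 and Adam33, overlapped between the genotypes, with log2 fold changes from -0.014 for Adam33 to 0.20 for Adam12.

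**Figure D5:**
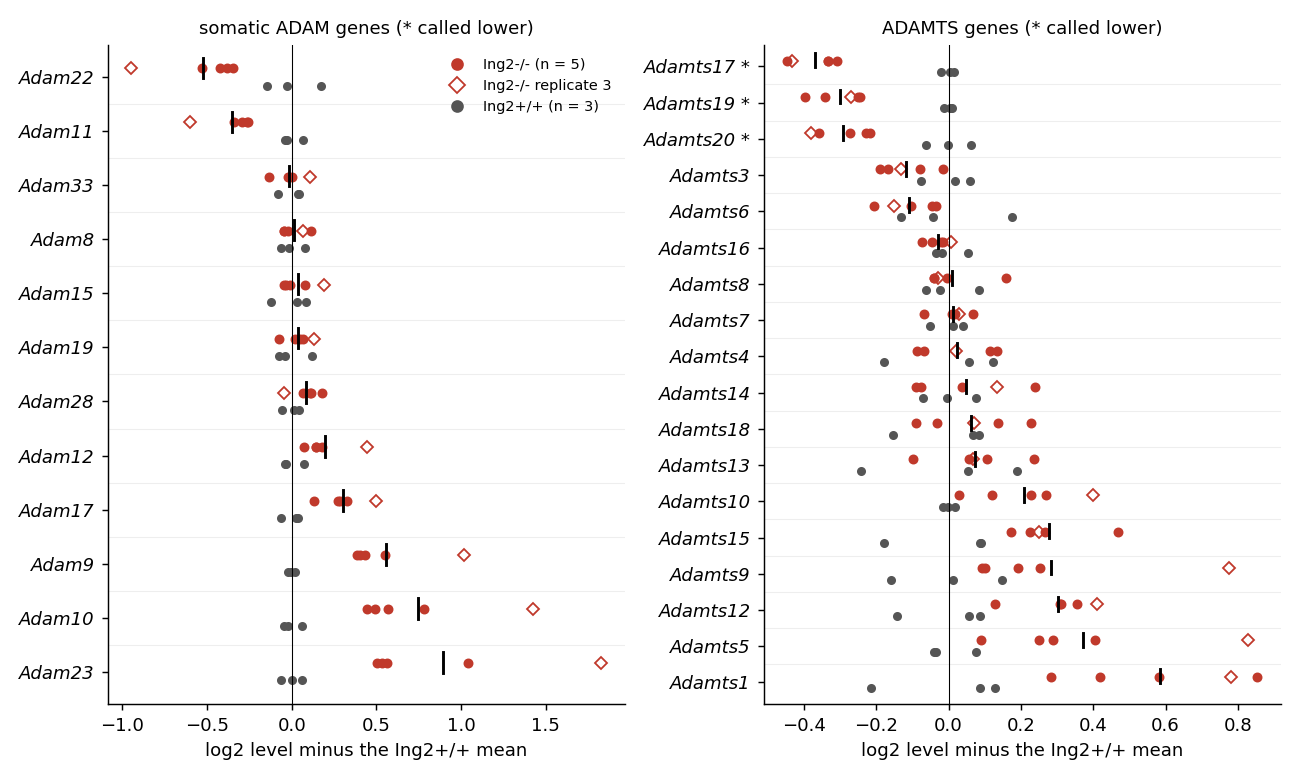
Log2 level in each array minus the Ing2+/+ mean (x axes, different ranges in the 2 panels) of 12 somatic ADAMs (left) and 18 ADAMTS genes (right), with Ing2-/- arrays in red above Ing2+/+ arrays in grey and a black bar at the Ing2-/- mean. Adam23, Adam10 and Adam9 at the foot of the left panel and Adamts1 at the foot of the right panel lie right of Ing2+/+ in all 5 Ing2-/- arrays, and the 3 called genes at the top right lie left of it.

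Of the 18 ADAMTS genes 3 fell and 0 were called higher by limma, beside 3.01% and 1.97% of all genes (5 were higher at an unadjusted p under 0.05, beside 16.5% of all genes, and 0 were called higher by the random variance model). Their median log2 fold change was 0.04 (-0.37 to 0.58). Adamts17, an enzyme whose loss in humans gives a Weill-Marchesani-like syndrome, had 8.61, 8.73, 8.63, 8.75 and 8.73 in the Ing2-/- testes, against 9.06, 9.08 and 9.04 in the Ing2+/+ testes. The Ing2-/- arrays were close together, with replicate 3 among them, and Adamts17 fell by 0.37 (SE 0.061, adjusted p = 0.0194 from limma), 1.29-fold lower. All 5 of its probe sets were below 0 (-0.68 to -0.11), and 3 of them were called. The call held without any 1 of the Ing2-/- arrays and was lost without any 1 of the Ing2+/+ arrays, where the adjusted p reached 0.0985. Adamts19, a secreted member of unknown substrate, had 5.45, 5.60, 5.58, 5.51 and 5.60 in the Ing2-/- testes, against 5.85, 5.84 and 5.86 in the Ing2+/+ testes, without overlap (log2 fold change -0.30, SE 0.061, adjusted p = 0.0354 from limma). Adamts20, the proteoglycanase of the belted mouse, had 5.66, 5.65, 5.50, 5.52 and 5.61 in the Ing2-/- testes, against 5.82, 5.94 and 5.88 in the Ing2+/+ testes, also without overlap (log2 fold change -0.29, SE 0.067, adjusted p = 0.0471 from limma). For Adamts19 3 and for Adamts20 2 of the 5 Ing2-/- values lay below the unnamed median, and both calls were lost without any 1 array except Ing2-/- replicate 3.

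The proteoglycanases Adamts1 and Adamts5, which cut versican and aggrecan, lay higher in Ing2-/- testes without passing the test. Adamts1 had 6.05, 6.35, 6.55, 6.19 and 6.62 in the Ing2-/- testes, against 5.90, 5.86 and 5.56 in the Ing2+/+ testes. All 5 Ing2-/- testes lay above Ing2+/+, with replicate 5 rather than replicate 3 the highest (log2 fold change 0.58, SE 0.14, adjusted p = 0.0534 from limma, and called without Ing2-/- replicate 1 or without replicate 3). Adamts5 had 7.16, 7.05, 7.59, 6.85 and 7.01 in the Ing2-/- testes, against 6.72, 6.72 and 6.83 in the Ing2+/+ testes, where Ing2-/- replicate 4 exceeded the highest Ing2+/+ testis by little (log2 fold change 0.37, SE 0.15, adjusted p = 0.147 from limma). All 6 probe sets of Adamts9, a further proteoglycanase, were above 0 (0.28 to 1.16), with 0 called by limma, and the brightest, which stands for the gene, was the least changed of them. Of the 16 probe sets of Adamts3, a procollagen peptidase, 13 were below 0 and 0 were called (-0.28 to 0.05). The remaining 11 ADAMTS genes had log2 fold changes from -0.11 for Adamts6, a protease of the microfibril matrix, to 0.30 for Adamts12, a protease of cartilage matrix proteins, and adjusted p-values from limma from 0.0723 to 0.954.

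Somatic cell markers stood higher in the same arrays. Sertoli cell markers scored 0.38, 0.33, 1.06, 0.32 and 0.54, and the 6 Leydig cell markers measured 0.49, 0.58, 1.19, 0.38 and 0.85, in the 5 Ing2-/- testes, against -0.05 to 0.04 for the Leydig markers in Ing2+/+ testes. The somatic ADAM score was 0.11, 0.11, 0.34, 0.09 and 0.17 in Ing2-/- testes, against 0.03, 0.001 and -0.03 in Ing2+/+ testes, and the ADAMTS score -0.007, 0.10, 0.13, -0.007 and 0.07 against 0.03, 0.03 and -0.07. Macrophage markers scored 0.15 to 0.65 and endothelial markers 0.11 to 0.27 in Ing2-/- testes, both within 0.05 of 0 in Ing2+/+ testes. All 12 Sertoli and all 6 Leydig markers had means above Ing2+/+, with 1 and 4 called higher, beside 1.97% of all genes. The part of these markers in the protease values was not tested. Ing2-/- replicate 3 was the highest of its group in 8 of 12 somatic ADAMs and in 5 of 18 ADAMTS genes, and the lowest in 21 of 21 germ-cell ADAMs.

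Adam7, made in the epididymis and passed to sperm there, had 4.36, 5.31, 4.16, 6.80 and 4.62 in the Ing2-/- testes, against 4.18, 4.32 and 4.30 in the Ing2+/+ testes. Ing2-/- replicates 2 and 4 stood well above all other arrays, replicates 1 and 5 lay above the highest Ing2+/+ testis by less, and replicate 3 lay just below the lowest (log2 fold change 0.79, SE 0.53, adjusted p = 0.368 from limma). In 4 of 5 Ing2-/- and 3 of 3 Ing2+/+ testes the value was below that of the median unnamed probe set. The epididymal marker scores of replicates 2 and 4 were -0.02 and -0.05.

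Genes that work with these proteases, in lists chosen with earlier results of these data known, gave 1 call by limma and the same count by the random variance model. Over all genes limma called 1.97% higher and 3.01% lower, and each count of calls in these lists, here and below, is read beside these shares. Clgn, Csf1r and Rnase10 in these lists also stand among the cell type markers. Their counts at an unadjusted p under 0.05 are read beside the 16.5% of all genes that were higher and the 13.5% that were lower at that p. Of 12 factors known to help ADAMs mature or reach the sperm surface 0 were called by limma, 10 were below 0 and 4 had an unadjusted p under 0.05, all lower (median -0.23). Pdilt, a testis protein disulfide isomerase that folds Adam3, had 9.66, 9.54, 8.84, 9.77 and 9.58 in the Ing2-/- testes, against 10.05, 10.07 and 10.03 in the Ing2+/+ testes (log2 fold change -0.57, SE 0.19, adjusted p = 0.0988 from limma). No Ing2-/- testis reached the Ing2+/+ range of Pdilt. Rnase10, which is made in the epididymis, had log2 fold change -0.31, SE 0.12, adjusted p = 0.133 from limma, at values below the median of unnamed probe sets in all 8 testes.

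For the sheddases, 0 of 12 partners of Adam10 and Adam17 were called by limma, with 4 higher and 1 lower at an unadjusted p under 0.05 (median 0.29). Rhbdf1, an inactive rhomboid that carries Adam17 to the surface, averaged 6.99 ± 0.12 (SD, n = 5) in the Ing2-/- testes, against 6.70 ± 0.086 (SD, n = 3) in the Ing2+/+ testes (log2 fold change 0.29, SE 0.085, adjusted p = 0.0775 from limma), without overlap. Tspan33, a tetraspanin partner of Adam10, averaged 7.16 ± 0.17 (SD, n = 5) in the Ing2-/- testes, against 7.49 ± 0.11 (SD, n = 3) in the Ing2+/+ testes (log2 fold change -0.33, SE 0.10, adjusted p = 0.0904 from limma), with overlap. Of 12 shed substrates 0 were called, with 5 higher at an unadjusted p under 0.05 (median 0.35). Notch2 (log2 fold change 0.46, SE 0.15, adjusted p = 0.105) and Notch1 (log2 fold change 0.49, SE 0.17, adjusted p = 0.105), both cut by Adam10, lay higher in all 5 Ing2-/- testes than in any Ing2+/+ testis, by limma short of the threshold.

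On the matrix side, 0 of 8 ADAMTS substrates were called by limma (3 higher at an unadjusted p under 0.05, median 0.05), and the closest to the threshold were the collagens Col3a1 (log2 fold change 0.43, SE 0.16, adjusted p = 0.126) and Col1a1 (log2 fold change 0.34, SE 0.13, adjusted p = 0.134), both with overlap. Of 7 ADAMTS-like genes, which lack the protease domain, Adamtsl1 fell, with 5.71, 5.79, 5.78, 5.71 and 5.56 in the Ing2-/- testes, against 5.98, 6.04 and 6.13 in the Ing2+/+ testes (log2 fold change -0.34, SE 0.074, adjusted p = 0.0414 from limma). Its groups did not overlap, and 1 Ing2-/- value lay below the median of the unnamed probe sets. The other 6 overlapped. All 5 inhibitors had groups without overlap and 0 were called by limma, 4 higher and 1 lower at an unadjusted p under 0.05, beside 16.7% and 14.9% of all genes without overlap and 16.5% and 13.5% at that p. Timp3, the inhibitor of Adam10, Adam17 and several ADAMTS enzymes, had 8.52, 8.45, 9.25, 8.66 and 8.50 in the Ing2-/- testes, against 7.99, 7.95 and 8.03 in the Ing2+/+ testes, with replicate 3 highest (log2 fold change 0.68, SE 0.17, adjusted p = 0.0555 from limma). Timp4 averaged 5.91 ± 0.085 (SD, n = 5) in the Ing2-/- testes, against 6.16 ± 0.10 (SD, n = 3) in the Ing2+/+ testes (log2 fold change -0.25, SE 0.075, adjusted p = 0.0806 from limma). Of 22 matrix metalloproteinases, a separate family, 0 were called by limma and 2 were higher at an unadjusted p under 0.05, a smaller share than the 16.5% of all genes (median 0.06). In 11 of the 22 all 8 values lay below the median of the unnamed probe sets. The 2 higher ones were Mmp2, a gelatinase (log2 fold change 0.38, SE 0.14, adjusted p = 0.120), and Mmp14, its membrane-bound activator (log2 fold change 0.54, SE 0.22, adjusted p = 0.146), neither overlapping between genotypes.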

How the data were processed

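Whole testis RNA was measured on Affymetrix Mouse Gene ST arrays, 1 per mouse. The log2 values deposited by the authors are RMA values from Affymetrix Expression Console (version not given in the sources used here). RMA corrects background, equalizes the distributions of arrays and summarizes probes, so levels are relative within a testis. Of 35557 probe sets, 21789 carried 1 symbol in the platform annotation and 12147 none (unnamed here). Groups came from the labels. The fit was limma 3.58.1 (lmFit and eBayes, R 4.3.3), a gene being called where the Benjamini-Hochberg adjusted p, over every probe set, was under 0.05. Fold changes are Ing2-/- minus Ing2+/+. The fit was tested on simulated data. Named genes are called members, the 4 of smallest p in each class, members with a set role, and the called genes (otherwise the 2 of smallest p) of each related list. Members and lists were chosen with earlier results of these data known. The number of arrays limits precision. Promoter sequences are from RefSeq, GRCm38.p6. Alternatives were a replicate block, each array left out, filters, scalings, variance models, array weights, mean probe sets and a cell mix covariate.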

Additional observations from a re-analysis of the deposited data

Results flagged for a closer look

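In 3 of the 21 named members 1 Ing2-/- array lay far from the other 4, where the gap to the nearest array, as a share of the range of the group, passed Dixon's limit of 0.71 for 5 arrays. Chance gives this in about 1 in 20 groups, but the named members were in part picked by small p, so 3 of 21 is not comparable with it. For Adam2, the beta subunit of fertilin, the share was 0.745, with replicate 3 at 10.11 below the others at 10.54 to 10.69. For the sheddase Adam9 it was 0.741, with replicate 3 at 9.32 above the others at 8.68 to 8.85. For Adam11 it was 0.762, with replicate 3 at 6.61 below the others at 6.87 to 6.95. All 3 involve Ing2-/- replicate 3, whose germ-cell and somatic marker scores are the extreme ones of its group, and the part of those in the gaps was not tested. Outside the named members the share also passed the limit for Adam6a (0.902), Adamts8 (0.812), Adamts9 (0.768), Adam32 (0.741), Adam5 (0.722) and Adam12 (0.712). For Adamts8 the distant array was Ing2-/- replicate 4, at 6.53, and for the others it was replicate 3.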

How the results depend on the processing

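The precision is limited by 5 and 3 arrays, and leaving out 1 array moved the number of called genes between 40 and 3286 (992 with all arrays), that of germ-cell ADAMs called lower between 0 and 14 (6) and that of somatic ADAM and ADAMTS genes called higher between 0 and 5 (0). Those 5, without Ing2-/- replicate 3, were Adam9, Adam10, Adam17, Adam23 and Adamts1, in a fit that called 8.72% of all genes higher. Same-numbered arrays had correlations of -0.057, 0.18 and 0.006, and differently numbered ones -0.11 to 0.14. With 3 Ing2+/+ arrays these values cannot show whether the replicate numbers pair the mice. With the replicate number as a block 0 genes and 0 germ-cell ADAMs were called, with Ing2 at -2.15 and also not called. Only replicates 1 to 3 hold both genotypes in that fit, so its lack of calls does not bear on pairing. Called genes over all numbered 1646 with adjustment over probe sets with 1 symbol, 15183 after a shift to equal Sertoli markers, 142 with unmoderated variances, 4107 with array weights and 65 with the cell mix covariate. Germ-cell ADAMs called lower numbered 21 after the Sertoli shift. That fit also called 76.1% of all genes lower, and 21 of the 30 somatic ADAM and ADAMTS genes. Germ-cell ADAMs called lower numbered 13 with array weights, beside 9.28% of all genes. With unmoderated variances or the covariate they numbered 0, beside 0.446% and 0.206% of all genes. Somatic ADAM and ADAMTS genes called higher numbered 2 with the filter on dim probe sets, beside 5.66% of all genes. They numbered 2 with 1-symbol probe sets, beside 3.73%. After cyclic loess they numbered 1 and with array weights 6, beside 1.45% and 11.3% of all genes. The germ-cell ADAM median was -1.26 after the Sertoli shift and -0.14 with the covariate. The median of the somatic ADAM and ADAMTS genes was 0.20 under the filter, which left 14 of 30, and below 0 after cyclic loess (-0.013), the Sertoli shift (-0.57) and with the covariate (-0.0088). The Sertoli shift moved the median of all genes to -0.60, and relative to that the germ-cell ADAMs had -0.66 and the somatic genes 0.03. It also put Adam9 at -0.059, Adam17 at -0.31, Adamts1 at -0.033 and Adamts5 at -0.24. The covariate put Adam2 at 0.082 and Adamts5 at -0.0057. The share of calls that were higher was 39.5% in the fit reported, 24.2% after cyclic loess, 0.07% after the Sertoli shift, 54.9% with array weights and 10% to 52.9% with 1 array left out. All germ-cell ADAMs with a value stayed below 0 under each alternative except the covariate, which makes 20 under the filter and 21 elsewhere. Of 393 values of named members under alternatives, 278 kept direction and side of the threshold, 76 lost and 33 gained the call. Adam7, Adam26a, Adamts19 and Adamts20 had no value under the filter. Except where an alternative used fewer arrays or probe sets, the cause of these shifts was not tested.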

Other observations

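Both probe sets annotated to several genes that include germ-cell ADAMs, and therefore used for no gene, lay lower in all 5 Ing2-/- testes. The probe set shared by Adam26a, Adam26b, Adam34, Adam34l and Gm5347 had 7.59, 7.22, 6.70, 7.92 and 7.39 in the Ing2-/- testes, against 8.39, 8.24 and 8.17 in the Ing2+/+ testes (log2 fold change -0.90, SE 0.23, adjusted p = 0.0581 from limma). The probe set shared by Adam4 and Gm4787 had 10.01, 9.93, 9.00, 9.90 and 9.88 in the Ing2-/- testes, against 10.24, 10.18 and 10.17 in the Ing2+/+ testes (log2 fold change -0.45, SE 0.21, adjusted p = 0.202 from limma).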
